A study of Gallus gallus with 4 samples.

Results

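This account follows 8 genes of cholesterol and lipid handling in chick chorioretinal tissue. They are APOA1 and ABCA1, which carry cholesterol out of cells, HMGCS1, FDFT1 and SQLE, which make it, INSIG1 and SREBF2, which sense it, and ELOVL2, which lengthens polyunsaturated fatty acids. Probes were assigned to these genes through the RefSeq accession that the array design gives each probe. Of the 8 genes, 7 had such a probe, with 17 probes in all, and SREBF2 had none. Of these probes, 15 were well above background on all 4 arrays, and they cover the same 7 genes. The whole measurement held 35419 such probes, and the named ones among them stood for 4809 genes.

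Cells make cholesterol from acetyl-CoA through the mevalonate pathway. When sterols are scarce, the SREBP2 protein (the product of SREBF2) switches on the genes of that pathway, and when sterols are plentiful INSIG1 holds SREBP2 back in the endoplasmic reticulum. Surplus cholesterol is passed by the membrane pump ABCA1 to apolipoprotein A-I, the product of APOA1 and the main protein of high-density lipoprotein. In the retina, membranes of photoreceptor outer segments are rich in polyunsaturated fatty acids such as docosahexaenoic acid, and ELOVL2 acts on the path to it. Apolipoprotein A-I has been proposed in chicks as a signal that slows eye growth, so its level in goggle-covered eyes is of interest.

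The 4 groups were pools of RNA from the eyes of chicks with no stated strain or genetic change. Each chick wore a myopia-inducing glass goggle over its right eye from day 6 of life, while its left eye had no goggle. Goggles were worn for 7 days under normal or violet light, on for 12 hours a day, and tissue was taken on day 13 as 6 mm buttons of retina and choroid. In the order used throughout, the pools are uncovered normal light, uncovered violet light, covered normal light and covered violet light. Each pool joined 4 eyes and was read on 1 array, from 16 eyes of 8 chicks in all, so no group has a replicate, no difference below has an error between animals, and no test was made. The eyes of 1 light came from the same chicks, and the lights separate chicks. In pooled tissue, fewer cells of a type and less RNA per cell cannot be told apart.

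Levels are log2 of the processed signal over the array's 75th percentile, and 1 log2 unit is 2-fold, the size at which a difference was counted. That percentile was 2108, 1325, 798 and 883 in the 4 pools, so both arrays labelled covered were dimmer. The array labelled uncovered normal light had the 2 lowest correlations over all probes, 0.980 with covered normal and 0.982 with covered violet light, and the other pairs of arrays had 0.988 to 0.993. For 43 probes printed 5 times each, single spots of a probe had an SD of 0.078 in their log2 difference between arrays, a measure of printing and scanning error and not of animals. The arrays carried retina and pigment epithelium RNA, with 12 of 16 photoreceptor and 10 of 12 pigment epithelium and melanocyte markers measured. The summed levels of these 2 lists ran from 342 to 416 and from 67.1 to 82.4 times the 75th percentile.

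The deposited sources do not give 2 of the arrays the same label. The authors' value table calls uncovered normal light the array whose scanner file is labelled covered violet light (correlation 0.999 across probes, against 0.982 with the scanner file of its own label), and the reverse holds for the other array. Scanner-file labels are used here unless the table's labels are named. The exchange turns each comparison into another pair of arrays. The difference between covered normal light and uncovered violet light uses the same arrays under both sets of labels, but mixes goggle and light.

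APOA1 was among the brightest transcripts and differed most between pools in the array labelled uncovered normal light. The signals of its brightest probe were 31588 in uncovered normal light, 7054 in uncovered violet light, 5897 in covered normal light and 3552 in covered violet light. Scaled, these were log2 levels of 3.91, 2.41, 2.89 and 2.01. The uncovered normal-light pool was thus highest and the covered violet-light pool lowest, 3.72-fold apart, and these are the 2 arrays with exchanged labels.

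Covered eyes had less APOA1 than uncovered eyes by a log2 difference of -1.02 (2.03-fold) under normal light and -0.40 (1.32-fold) under violet light. Violet-light eyes had less than normal-light eyes, by -1.49 (2.81-fold) uncovered and -0.88 (1.84-fold) covered. Under the table's labels every one of these turns round, so that covered eyes had more APOA1, by 0.88 under normal and 1.49 under violet light, and violet-light eyes had more, by 0.40 uncovered and 1.02 covered. In the arrays whose labels agree, covered normal light was above uncovered violet light by 0.47. The goggle difference was 0.61 higher under violet than normal light, a value that both sets of labels share. The normal-light goggle difference lay just past 2-fold, and it was -0.9985 in the authors' value table and -0.89 as the mean of the 3 probes.

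The 3 probes of APOA1 lay in the same order of pools. The next brightest probe differed by -1.12 for goggles under normal light, -0.35 under violet light, -1.65 for violet light in uncovered eyes and -0.88 in covered eyes. The dimmest, whose signals ran from 121 to 650, gave smaller sizes of -0.53, -0.36, -0.81 and -0.64. All 3 probes therefore placed uncovered normal light highest and covered violet light lowest.

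Markers of connective tissue also differed between these pools. The summed level of 13 measured of 15 fibroblast and matrix markers was 22.6 and 23.2 times the 75th percentile in the uncovered and covered normal-light pools, against 14.1 and 13.9 in the violet-light pools. Its median light difference was -0.71 in uncovered and -1.09 in covered eyes. Of 13 endothelial markers 6 were measured, with median light differences of -1.47 and -1.22, and 4 of the 6 were 2-fold lower under violet light in each eye group. Of all 4809 genes, 1.68% were 2-fold lower under violet light in uncovered eyes, and 109 genes were in covered eyes. Of 8 smooth muscle and pericyte markers 4 were measured, with median light differences of -0.94 and -1.03. Under the table's labels these arrays read instead as higher in covered eyes. The goggle medians under normal and violet light were then 1.09 and 0.71 for matrix, 1.22 and 1.47 for endothelium and 1.03 and 0.94 for smooth muscle. The light medians in uncovered and covered eyes became 0.083 and 0.048, 0.041 and 0.23, and -0.41 and -0.19 in the same order of lists. In the order uncovered normal, uncovered violet, covered normal and covered violet light, the summed endothelial level was 5.88, 4.50, 5.58 and 4.58, and that of smooth muscle and pericyte was 13.7, 9.79, 11.6 and 9.84. Macrophage markers, 7 of 12 measured, summed to 8.64, 6.50, 7.78 and 5.73 in that order. By the scanner labels, vessel, macrophage and matrix sums were thus lower in both violet-light pools, as APOA1 was. Of these sums, only that of macrophage markers shared the full order of pools with APOA1. The matrix sum was highest in covered normal light, and the endothelial and smooth muscle sums were lowest in uncovered violet light. Sums follow their brightest genes, and single genes did not all follow their sum. CD74 led the macrophage sum, at a log2 level of 2.81 in uncovered normal light against 0.25 for CTSS. The macrophage genes CTSS, LY86, CYBB and TIMD4 did not have the order of APOA1, and CD74, TLR4 and C1QC did. In the matrix and endothelial lists, COL1A2, DCN, SOX17 and LYVE1 had it, and COL3A1, POSTN and KDR did not. The sums of striated muscle and lens markers did not share the split by light. By the scanner labels, the median light difference in uncovered and covered eyes was -0.13 and -2.95 for striated muscle. For lens it was 2.77 and -0.41. Striated muscle, 11 of 15 measured, summed to 10.2, 9.06, 31.9 and 11.1, and lens, 10 of 12 measured, to 1.83, 14.6, 4.84 and 3.19. APOA1 is made in bulk by liver in many animals. Of 11 liver markers 4 were measured, and 4 more had a probe that was not well above background everywhere. The summed level of the 4 was 1.77, 1.55, 1.16 and 1.09 times the 75th percentile in uncovered normal, uncovered violet, covered normal and covered violet light. The part of these lists in the APOA1 differences was not tested.

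ABCA1, the cholesterol pump that loads apolipoprotein A-I, was measured near background. Its brighter probe gave unscaled signals of 18.0, 27.8, 21.0 and 22.4 in uncovered normal, uncovered violet, covered normal and covered violet light, and the lowest signal counted as well above background was between 8.34 and 12.4 on the 4 arrays. The scanner software's own error for this probe reached 20.6% of the signal. Before scaling, the 4 pools thus ran from 18.0 to 27.8, on arrays whose 75th percentiles ran from 798 to 2108.

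After scaling, the log2 levels were -6.87, -5.57, -5.24 and -5.30, so that the uncovered normal-light pool was lowest and the other pools lay within 0.33 of each other. Covered eyes were above uncovered eyes by 1.63 (3.09-fold) under normal light and by 0.27 under violet light. Violet light was above normal light by 1.30 (2.46-fold) in uncovered eyes and differed by -0.053 in covered eyes. The goggle difference under violet light minus that under normal light was -1.35, again the same under both sets of labels. Under the table's labels the goggle differences became 0.053 and -1.30, and the light differences -0.27 and -1.63.

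The dimmer ABCA1 probe was not well above background in the uncovered normal-light pool, where the software's error was 25.0% of its signal. Folds against that pool are therefore uncertain. Scaled, the probe was 4.76-fold higher in the covered than in the uncovered normal-light pool, from unscaled signals of 26.0 and 14.4. It was 1.71-fold higher in uncovered violet than uncovered normal light, from unscaled signals of 15.5 and 14.4. Scaling adds to both folds, with 75th percentiles of 2108 in uncovered normal, 798 in covered normal and 1325 in uncovered violet light. Both probes thus placed the uncovered normal-light pool lowest.

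**Figure D1:**
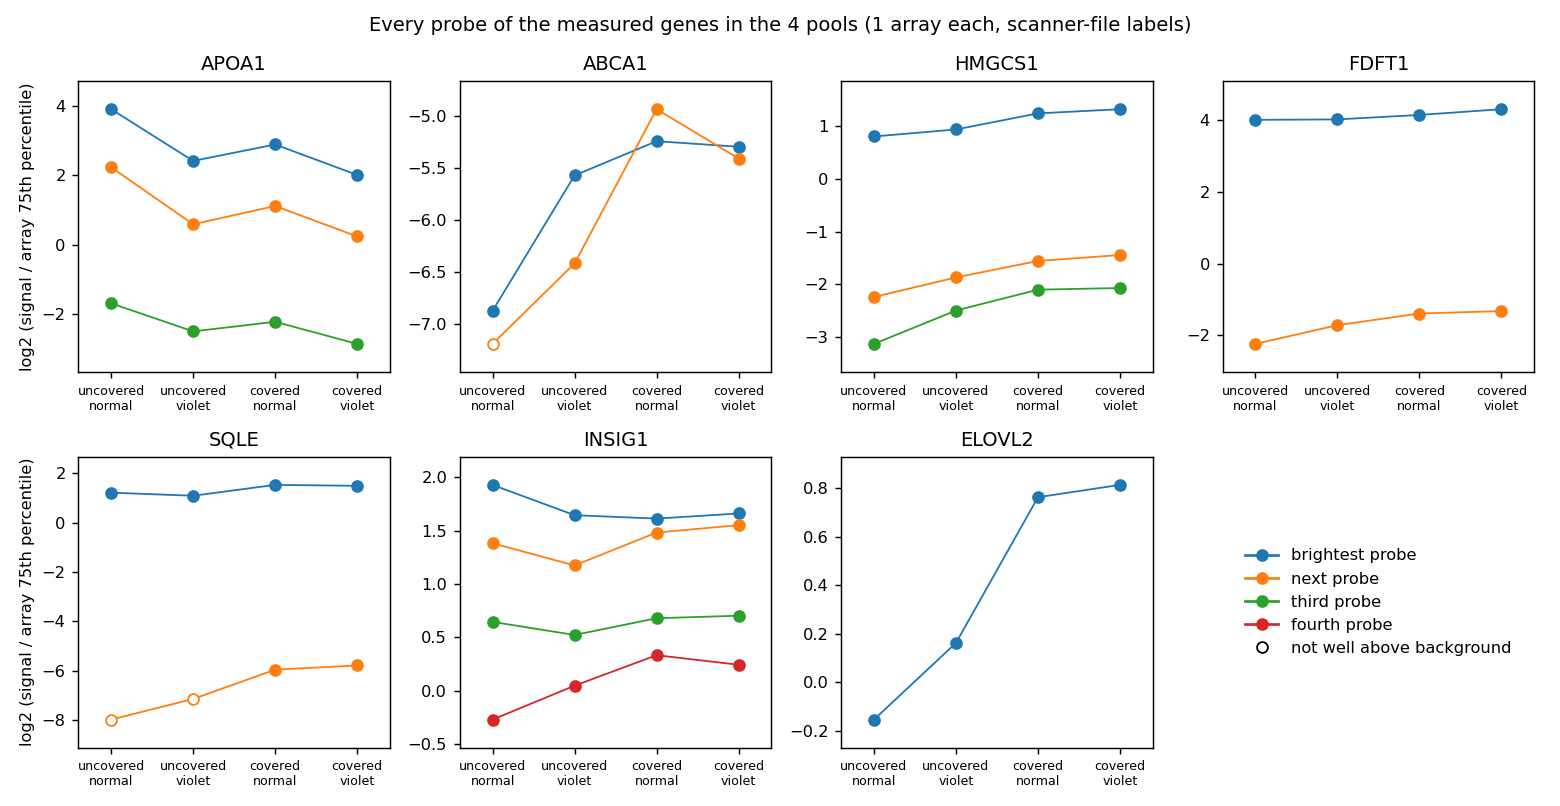
Level of every probe of the 7 measured genes in the 4 pools, as log2 of signal over the array's 75th percentile, with 1 array per pool and a separate vertical scale per gene. Points joined by a line belong to 1 probe, and open points were not well above background. The 3 APOA1 probes share their order of pools, while the dimmer HMGCS1 and FDFT1 probes differ more between pools than the brightest ones.

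Over the whole table, the goggle difference varied with the signal of the probe. Passing probes were split by mean signal into 10 bins of equal size, with bin 1 the dimmest. In bin 1, which holds ABCA1, the median goggle difference was 0.41 under normal and 0.17 under violet light. In bin 10, which holds the leading probes of APOA1 and FDFT1, it was 0.0055 and 0.023. With quantile normalization the ABCA1 goggle differences were 1.27 and 0.14, against 1.63 and 0.27 as reported. The part of low signal in these differences was not tested.

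Cholesterol synthesis genes showed small differences that mostly pointed upward in covered eyes. HMGCS1 makes the HMG-CoA that feeds the mevalonate pathway. Its brightest probe had log2 levels of 0.80 in uncovered normal, 0.93 in uncovered violet, 1.24 in covered normal and 1.32 in covered violet light. Both pools labelled covered were above both labelled uncovered. The goggle differences were 0.44 (1.35-fold) and 0.38 (1.30-fold), and the light differences 0.13 and 0.079.

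FDFT1, the squalene synthase that commits the pathway to sterols, had levels of 4.02, 4.03, 4.15 and 4.31. The covered pools were above the uncovered ones by 0.14 under normal and 0.28 under violet light, and violet light differed from normal by 0.013 uncovered and 0.16 covered. SQLE, the squalene epoxidase and a rate-limiting step after squalene, had levels of 1.21, 1.09, 1.53 and 1.49. Its goggle differences were 0.32 and 0.40 and its light differences -0.12 and -0.037. For these 3 genes the 6 goggle values of the brightest probes were positive, but under normal light FDFT1 turned to -0.19 and SQLE to -0.0083 with median scaling, which also moved the median of all genes from 0.021 to -0.30.

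Dimmer probes of the same synthesis genes gave larger values. HMGCS1 had goggle differences under normal light of 0.44, 0.68 and 1.03 from its brightest to its dimmest probe, which lie in signal bins 9, 5 and 4. Under violet light the same probes gave 0.38, 0.42 and 0.43. Over all passing probes, the medians of those bins were -0.069, 0.21 and 0.31 under normal light. They were 0.0032, 0.099 and 0.13 under violet light. The other FDFT1 probe, in bin 5, gave 0.85 and 0.39, against 0.14 and 0.28 for the brightest. The second SQLE probe was not well above background in either uncovered pool, with unscaled signals of 8.38 in normal and 9.38 in violet light. Its signal in covered normal light was 12.9. The lowest signal counted as well above background was 12.4 on the uncovered normal-light array. Against that lowest signal on each uncovered array, covered eyes were 2.73-fold higher after scaling under normal light and 2.22-fold under violet light. Scaling adds to both folds. The normal-light fold is not a lower limit, since the dimmer ABCA1 probe, at 14.4, was also not well above background on that array. Both folds are therefore uncertain. The probes of HMGCS1 and of FDFT1 thus lay closer to each other under violet light, where the arrays compared were also closer in brightness. The part of array brightness in this was not tested.

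Under the table's labels the synthesis genes no longer differed in 1 direction with goggles. Their goggle differences became -0.079, -0.16 and 0.037 for HMGCS1, FDFT1 and SQLE under normal light and -0.13, -0.013 and 0.12 under violet light. The same arrays then read as less synthesis transcript under violet light, by -0.38, -0.28 and -0.40 in uncovered eyes and -0.44, -0.14 and -0.32 in covered eyes. In the pair with undisputed labels, covered normal light exceeded uncovered violet light by 0.30, 0.12 and 0.44.

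**Figure D2:**
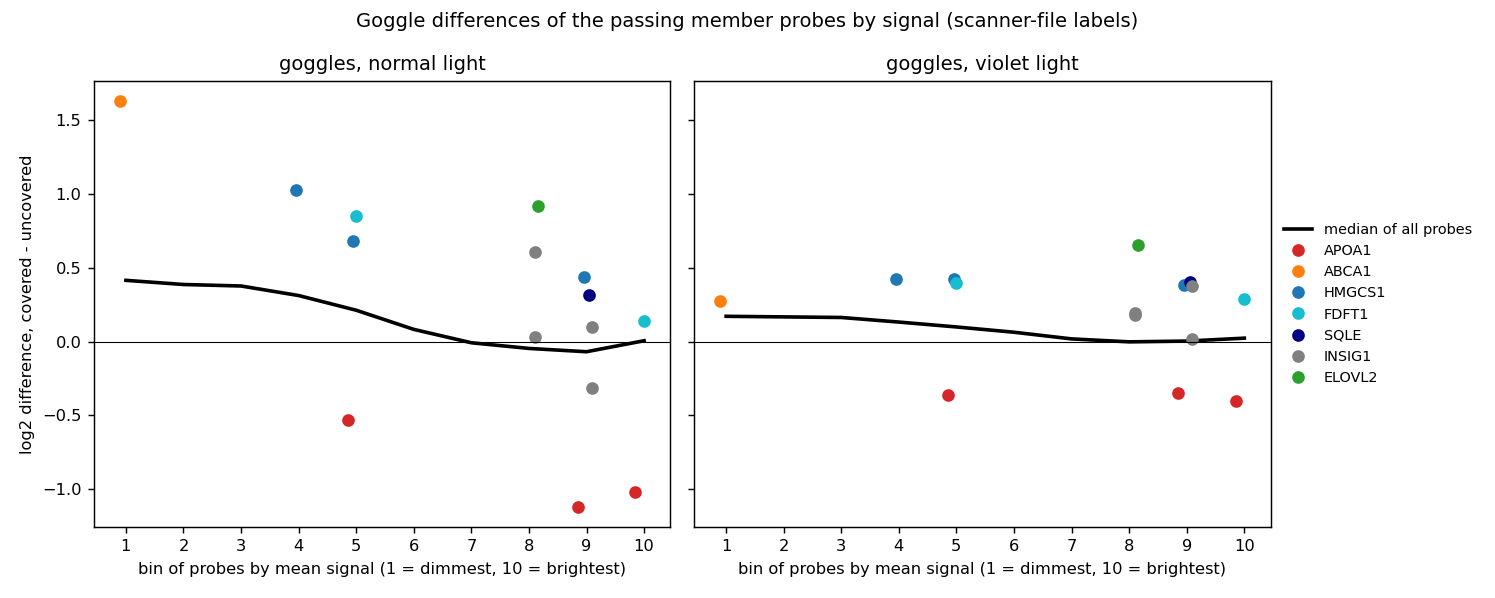
Goggle difference (log2, covered minus uncovered) of each passing probe of the 7 genes against its bin of all probes by mean signal, under normal light (left) and violet light (right). The black line is the median of all passing probes per bin, which falls from 0.41 to 0.0055 under normal light and from 0.17 to 0.023 under violet light between bins 1 and 10. ABCA1 lies in bin 1, and the 3 APOA1 probes lie below 0 in both panels.

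INSIG1, the sterol-sensing brake, is itself a target of SREBP2 in mammals. Its brightest probe had levels of 1.93, 1.65, 1.61 and 1.66, highest in uncovered normal light, with the other pools within the spot error of each other. The goggle differences were -0.32 under normal and 0.016 under violet light, and the light differences -0.28 and 0.048. The other 3 probes did not share the negative normal-light value, at 0.10, 0.03 and 0.60. INSIG1 therefore had no direction that its 4 probes agreed on for goggles under normal light, and for goggles under violet light the probes ran from 0.016 to 0.38.

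ELOVL2, the elongase on the path to docosahexaenoic acid, differed more between the eyes than the brightest probe of HMGCS1, FDFT1 or SQLE. Its single probe gave signals of 1894, 1482, 1354 and 1553 and log2 levels of -0.15, 0.16, 0.76 and 0.81. Both pools labelled covered were above both labelled uncovered, by 0.92 (1.89-fold) under normal and 0.65 (1.57-fold) under violet light. These stayed under 2-fold. Violet light was above normal light by 0.32 uncovered and 0.051 covered.

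The ELOVL2 goggle values were 0.59 and 0.55 with median scaling and 0.93 and 0.65 with quantile normalization. The median of all passing probes in its bin was -0.047 and -0.0019. The table's labels changed the reading to a lower level under violet light, by -0.65 in uncovered and -0.92 in covered eyes, with goggle differences of -0.051 and -0.32. In the arrays whose labels agree, covered normal light was above uncovered violet light by 0.60. Summed Mueller glia markers, 7 of 8 measured, were 313, 400, 447 and 440 times the 75th percentile in the same order of pools. GLUL was the brightest of them and differed by 0.80 and 0.23 for goggles under normal and violet light, by the scanner labels. The median of the 7 was 0.39 and 0.024, with 4 and 5 of them above 0. VIM and SOX9 were lower in covered eyes under both lights. The part of these markers in the ELOVL2 values was not tested.

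The efflux and synthesis arms were then set against each other in each comparison. APOA1 and ABCA1 differed in opposite directions in the 2 comparisons in which they passed 2-fold. For goggles under normal light the synthesis median was 0.32, against -1.02 for APOA1 and 1.63 for ABCA1. The efflux median of 0.30 therefore describes neither gene, and synthesis minus efflux was 0.011. Under violet light the synthesis median was 0.38, against -0.40 and 0.27, and the difference was 0.45.

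For violet against normal light, the synthesis median was 0.013 in uncovered eyes, against -1.49 for APOA1 and 1.30 for ABCA1, and the difference of the medians was 0.11. In covered eyes it was 0.079, against -0.88 and -0.053, with a difference of 0.54. Synthesis minus APOA1 alone was 1.33 and 0.79 for goggles in normal and violet light, and 1.51 and 0.96 for light in uncovered and covered eyes. The synthesis arm thus stood above APOA1 in all 4 comparisons under the scanner labels.

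Under the table's labels the synthesis arm stood below APOA1 in all 4 comparisons. The synthesis medians were -0.079 and -0.013 for goggles in normal and violet light, against 0.88 and 1.49 for APOA1. For light they were -0.38 and -0.32 in uncovered and covered eyes, against 0.40 and 1.02. Synthesis minus efflux was then -0.54, -0.11, -0.45 and -0.011. In the undisputed pair of arrays, the synthesis median of 0.30 lay between 0.33 for ABCA1 and the median of all genes, 0.028, with APOA1 at 0.47.

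**Figure D3:**
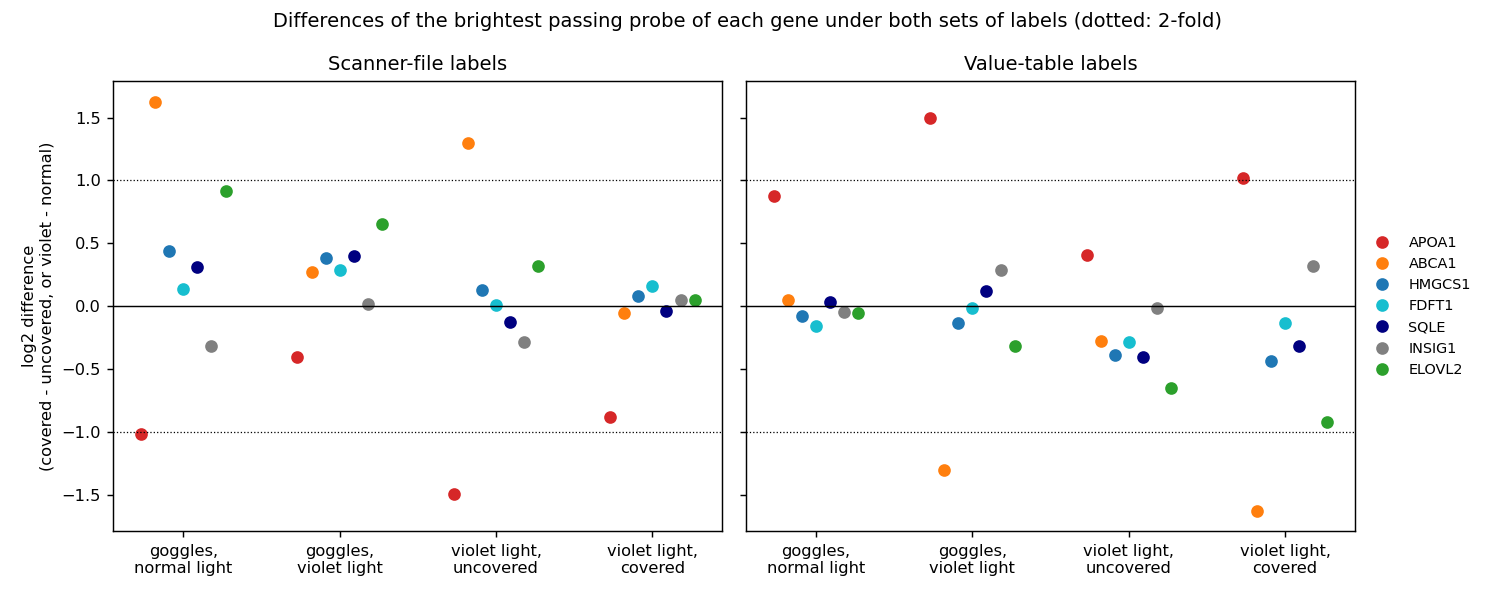
Log2 difference of the brightest passing probe of each of the 7 genes for goggles (covered minus uncovered) and light (violet minus normal), under the scanner-file labels (left) and the value-table labels (right), with 2-fold as dotted lines. APOA1 is below 0 in all 4 comparisons on the left and above 0 in all 4 on the right.

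Of the 7 genes, 2 reached 2-fold for goggles under normal light, APOA1 lower and ABCA1 higher, where 6.16% of 4809 genes did. Of all genes, 1.46% were at least 2-fold lower and 4.7% higher. None of the 7 did under violet light, where 1.08% of all genes did. For light, the same 2 genes reached 2-fold in uncovered eyes (2.91% of all genes, 1.68% lower and 1.23% higher) and none in covered eyes (2.35%). None reached it in the undisputed pair, where 3.18% of all genes did. With the table's labels the shares of all genes were 2.35% and 1.08% where none of the 7 reached 2-fold (goggles under normal light, light in uncovered eyes). They were 2.91% and 6.16% where APOA1 and ABCA1 did (goggles under violet light, light in covered eyes). All of these calls involve the array whose scanner file is labelled uncovered normal light, and none of the 7 reached 2-fold in the comparisons without it.

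The balance of higher and lower genes in the background moved with the scaling in 3 of the 4 comparisons. For goggles under normal light it was 226 higher and 70 lower, but 118 and 141 with quantile normalization, 103 and 210 with median scaling 116 and 130 in the authors' value table and 278 and 32 after normexp background correction. For goggles under violet light it was 19 and 33, and 14 and 41 with median scaling. For light in uncovered eyes it was 59 and 81, but 35 and 116 with quantile normalization, 34 and 119 with median scaling and 33 and 108 in the authors' value table. For light in covered eyes it was 4 and 109, and 6 and 108 with quantile normalization, 4 and 106 with median scaling and 4 and 108 in the authors' value table.

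Sterol synthesis genes were also taken as a list, which includes HMGCS1, FDFT1 and SQLE, so its values partly restate theirs. Of 20 listed genes 10 were measured, and none reached 2-fold in any of the 4 comparisons, where 1.08% to 6.16% of all genes did. For goggles under violet light 8 of the 10 were above 0, with a median of 0.28 against 0.043 for all genes, of which 58.3% were above 0. Under normal light 7 of 10 were above 0, with a median of 0.18 against 0.021 for all genes, of which 52.0% were above 0. LSS, which closes the sterol rings and was to be named whatever its values, differed by 0.72 under normal and 0.37 under violet light. Of the 10 genes, 3 were below 0 under normal light and 2 under violet light, all by the scanner labels.

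For light, the sterol synthesis median was -0.03 in uncovered and 0.03 in covered eyes, with 4 and 7 of 10 genes above 0. For all genes the medians were -0.010 and 0.024, and 48.6% and 58.0% were above 0. By the table's labels those arrays give the goggle comparisons, and the goggle arrays give light, each with its sign reversed. The goggle medians under normal and violet light were then -0.028 and 0.030, with 3 and 6 of 10 genes above 0. The light medians in uncovered and covered eyes became -0.28 and -0.18, with 2 and 3 of 10 above 0. In the undisputed pair 8 of 10 were above 0, with a median of 0.26 against 0.028 for all genes.

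In the efflux and lipoprotein list, 9 of 20 genes were measured. For goggles under normal light 1 of them was 2-fold higher and 2 were 2-fold lower, beside 4.7% and 1.46% of all genes. By the scanner labels the list median for goggles was 0.54 under normal and 0.055 under violet light. In each light 5 of the 9 were above 0, beside 52.0% and 58.3% of all genes. By the table's labels these medians were 0.053 and -0.22. Besides APOA1 and ABCA1, APOH, a phospholipid-binding plasma protein that is also on the liver list, was lower in covered eyes by -1.41 under normal and -0.75 under violet light. Its other probe gave -0.46 and -0.59. It was also lower in covered normal than in uncovered violet light by -1.002. APOH levels were -0.021 and -0.43 in the uncovered normal and violet pools, and -1.43 and -1.17 in the covered ones, so that by the scanner labels both covered pools were below both uncovered ones. Under the table's labels its goggle differences became -0.26 and 0.41, and the light differences 0.75 and 1.41.

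A few more lipid genes reached 2-fold in a comparison. Of all genes, 6.16% and 1.08% did for goggles under normal and violet light. For light, 2.91% did in uncovered and 2.35% in covered eyes. With lists this short, a call or its absence says little about a list. In the uptake, storage and transport list, with 7 of 17 measured, the lipoprotein receptor LRP1 was higher in covered eyes by 1.43 under normal and 0.35 under violet light, from 1 probe in signal bin 3. Among fatty acid carriers, receptors and oxidation genes, with 12 of 20 measured, CPT1A, which brings fatty acids into mitochondria, differed by 1.20 and 0.23, also in bin 3. The median of all passing probes in that bin was 0.38 under normal and 0.16 under violet light. By the scanner labels LRP1 and CPT1A were both lowest in the uncovered normal-light pool. Under the table's labels the goggle differences were 0.089 and -0.99 for LRP1 and 0.25 and -0.71 for CPT1A. The elongase ELOVL7 was lower under violet light in covered eyes by -1.34, and differed by -0.29 in uncovered eyes. Under the table's labels its light differences were -0.82 in covered and 0.24 in uncovered eyes. Of the 14 measured genes of its list, ELOVL7 alone was 2-fold apart in the undisputed pair, higher in covered normal than in uncovered violet light. Of all genes, 3.18% were 2-fold apart there.

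The rest of the fatty acid synthesis, elongation and desaturation list stayed under 2-fold in all 4 comparisons. Of 26 listed genes 14 were measured, with medians of 0.11 and 0.03 for goggles. The desaturase FADS2 differed by 0.26 and 0.04, and the elongase ELOVL5 by 0.18 and 0.02. ELOVL2, at 0.92 and 0.65, was the highest of the 14 in both goggle comparisons by the scanner labels, but not by the table's labels, where it differed by -0.051 and -0.32 and ELOVL7 by 1.34 and 0.29. In the sterol-sensing list, 5 of 12 were measured. None of them reached 2-fold in the 4 comparisons, where 1.08% to 6.16% of all genes did.

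**Figure D4:**
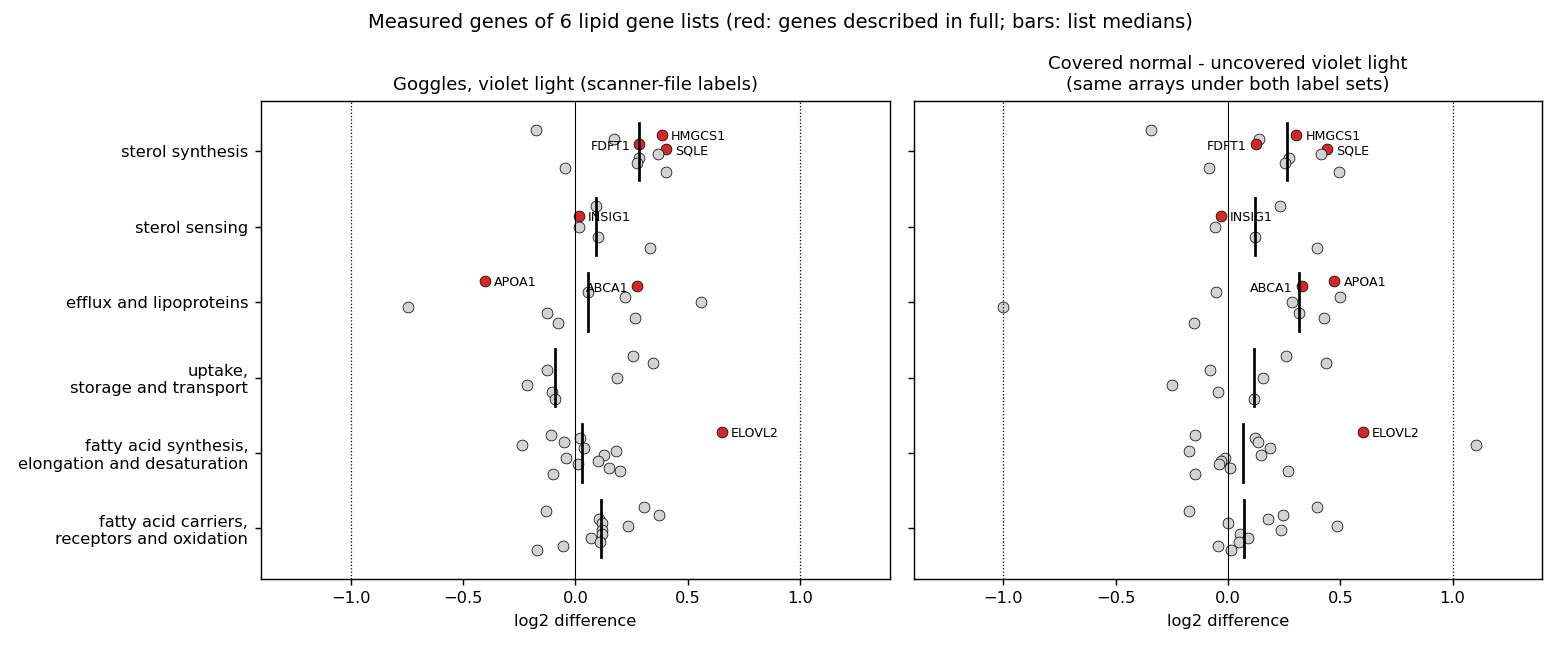
Log2 difference of each measured gene of 6 lipid gene lists for goggles under violet light (left, scanner-file labels) and for covered normal minus uncovered violet light (right, same arrays under both sets of labels), with list medians as bars and 2-fold as dotted lines. The sterol synthesis medians are 0.28 and 0.26, and ELOVL2 stands at 0.65 and 0.60.

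Genes with the pattern nearest to APOA1 were found by the Euclidean distance of their centred log2 levels over the 4 pools. The 5 nearest were IRF1, an interferon-regulated transcription factor (distance 0.28), the transcriptional repressor HIC1 (0.30), the fibrillar collagen COL1A2 (0.30), the class I histocompatibility gene BF2 (0.38) and the prostaglandin D synthase PTGDS (0.38). Each was highest in uncovered normal light and lowest in covered violet light, as APOA1 was, which a choice by nearness to APOA1 favours. PTGDS had log2 levels of 2.25, 0.36, 1.01 and -0.15.

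The mean pattern of HMGCS1, FDFT1 and SQLE had many near neighbours. The 5 nearest were CSRP2, STX10, GLYR1, CNDP2 and FKBP8, at distances of 0.0093 to 0.032, and 1438 of the 4809 genes lay within 0.3, against 2 genes for APOA1. The distance grows with the size of the differences, which were larger for APOA1.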

How the data were processed

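Agilent Feature Extraction 11.5.1.1 read 1-colour scans, per the file headers, and gave a processed intensity per spot, with its error, background-subtracted and not scaled between arrays, and 0 or 1 marks (another unit, as deposited). The value table that the authors deposited also holds intensity values. No source used here says how they were scaled. Compared with the scanner values, the table is linear, not centred per gene and of the same direction, with column medians of 218.37 to 218.72.

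Of 43803 spots that are not controls, averaging gave 43603 probes, and 12 with an outlier mark were left out. No spot was saturated. Unversioned accessions matched RefSeq genes of GRCg7b for 11710 probes, none with several genes, and 31881 stayed unnamed. The files name an older build, so no coordinates are given. A gene is represented by its brightest passing probe. Python 3.11.15 and, for normexp and quantile normalization, R 4.3.3 with limma 3.58.1 were used. Scaling and differences were tested on simulated data with planted changes.

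With 1 array per group no p-value was computed, and differences were counted at 2-fold. The number of arrays limits the precision. The genes and lists were chosen with earlier results of these data known. Named genes are the 8 listed genes, lipid-list genes at 2-fold in any comparison, fixed pathway genes (LSS, FADS2 and ELOVL5, with IDI1, CYP51A1 and ABCG1, which matched no probe here, and others not reported here) and the 5 nearest patterns. Alternatives changed the scaling, background correction, source of values, labels, probe choice and signal filter.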

Additional observations from a re-analysis of the deposited data

How the results depend on the processing

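No paired analysis was possible because each group is 1 array. Synthesis minus efflux for goggles under normal light, 0.011 as reported, was 0.25 with quantile normalization, 0.26 in the authors' value table, 0.27 after normexp correction (offset 50, on median spot signals since the files hold no mean signal, a choice made after seeing the data), 0.12 with the mean of passing probes, 1.33 among probes above the median signal, where ABCA1 drops out, and -0.54 with the table's labels. Under violet light, 0.45 became 0.29 after normexp, 0.79 among the brighter probes and -0.11 with the table's labels. For light in uncovered eyes, 0.11 became 0.42, 1.51 and -0.45 under the same 3 settings and 0.28 with the mean of probes. In covered eyes, 0.54 became 0.42, 0.96 and -0.011. The count of the 7 genes at 2-fold for goggles under normal light, 2, was 1 in the authors' table, with the mean of probes and among the brighter probes, and 0 with the table's labels. Under violet light it went from 0 to 2 with the table's labels, as it did for light in covered eyes. In uncovered eyes it went from 2 to 1 after normexp and among the brighter probes, and to 0 with the table's labels. Of the values at 2-fold as reported, the table's labels reversed APOA1 for goggles under normal light (0.88) and for light in uncovered eyes (0.40). They also reversed ABCA1 for light in uncovered eyes (-0.27). Below 2-fold as reported, APOA1 turned as well for goggles under violet light (1.49) and light in covered eyes (1.02), and ABCA1 for goggles under violet light (-1.30). Of 28 gene values, the sign held in 26 with quantile normalization and in the authors' table, 27 after normexp and with the mean of probes, 22 with median scaling, 28 with no filter on background, all 24 among the brighter probes and 10 with the table's labels. The count of all genes at 2-fold, 296, 52, 140 and 113 for goggles in normal and violet light and light in uncovered and covered eyes, was 455, 156, 246 and 225 with no filter, 85, 14, 43 and 30 among the brighter probes, 310, 26, 60 and 55 after normexp and 113, 140, 52 and 296 with the table's labels. APOA1 kept its direction in all settings that keep the scanner labels, from -1.34 to -0.89, -0.51 to -0.37, -1.67 to -1.32 and -0.91 to -0.80 in the same order. Signal near background limits ABCA1 and the second SQLE probe. Apart from the exchange of labels and the loss of ABCA1, the cause of these shifts was not tested.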
